A study of Homo sapiens with 5 samples.

Results

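The 9 genes described here are members of the Notch pathway, namely the receptors NOTCH1, NOTCH2 and NOTCH3, the ligands JAG1, JAG2 and DLL1, and the target genes HES1, HEY1 and HES4. They were taken by name from a fixed list and not ranked by their values, though earlier results of these data were known when it was chosen. They are 9 of the 33538 genes in the count matrices. All 9 had at least 1 unique molecular identifier (UMI), the tag that marks 1 captured RNA molecule, in each of the 5 libraries.

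The study followed KYSE30-Luc-GFP cells, a human esophageal squamous cell carcinoma (ESCC) line that carries luciferase and green fluorescent protein (GFP), after tail vein injection into NOD SCID mice, which have no functional T and B cells. Single cells were profiled at the 3′ end of transcripts in the parental culture and, after sorting for GFP, in lung cells at 6 h and 48 h and later at 2 and at 4 months, with 1 library for each. Cells of several mice were pooled at 6 h, 48 h and 2 months, the 4 months library came from a single mouse, and all cells descend from 1 line. Lung cells were dissociated from tissue and depleted of mouse cells before sorting, so that time in the lung and handling cannot be told apart.

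Notch receptors are transmembrane proteins that are cleaved when a ligand on a neighbouring cell binds them. The freed intracellular part enters the nucleus, joins the DNA-binding protein RBPJ and its coactivators, and switches on target genes, of which HES and HEY genes, all transcriptional repressors, are the best known. In squamous epithelium the pathway is known for its part in the balance between basal and differentiating cells.

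The filter of the study required 200 to 8000 genes, no fewer than 1000 UMIs and no more than 15% of them mitochondrial. It kept 19986 of 26712 barcodes, from 1149 at 48 h to 9059 in the parental culture, with a median of 12979 to 39076 UMIs per cell. Levels are counts-per-million (CPM), the UMIs of a gene relative to all UMIs of the cells compared. Their 95% intervals are exact Poisson, and a ratio of CPM has an exact conditional binomial interval. These intervals cover counting error only, since there is 1 library per timepoint, no replicate and no test between timepoints. Pairs of libraries shared 1 to 62 kept barcodes. Cells were also divided by the signature filter of the study, which asks for at least 1 UMI in each of its groups of metastasis-initiating signature genes and uses no Notch gene. In the paper this filter also took in some parental cells outside Cluster S, its proposed metastasis-initiating cells. The signature-positive cells here are thus not the same set as Cluster S. Signature-positive cells numbered 1310 of 9059 in the parental culture and, in time order, 1922 of 1957, 1099 of 1149, 2716 of 3322 and 4465 of 4499 in the lung. The epithelial markers KRT8 and KRT18 were found in all libraries, while KRT5, a keratin of basal squamous cells, was at 0.0316 CPM in signature-positive parental cells and at 1748 CPM in those of 4 months. Of the 8 squamous epithelial markers looked at, KRT5 included, 6 reached 5 CPM in signature-positive parental cells. All 8 did so in those of 4 months. Of the fibroblast, endothelial, mural (NOTCH3 aside) and alveolar or airway markers, the collagen gene COL1A1 reached 11.7 CPM at 48 h, most of it in the 50 signature-negative cells (3385 CPM), and no other marker of these lists exceeded 6.43 CPM in all cells or in signature-positive cells. The 6 leukocyte markers summed to 44.1 CPM in all cells and 26.0 CPM in signature-positive cells at 6 h, to 23.5 CPM in both at 48 h, and to 11.7 CPM in signature-positive parental cells. LYZ was at 17.5 CPM in all cells of 6 h and 0.309 CPM in the positive ones, CD68 at 16.5 CPM in positive cells of 6 h and CSF1R at 12.1 CPM in those of 48 h, while the pan-leukocyte marker PTPRC was at most at 0.0633 CPM in signature-positive cells. An alternative processing left out cells with at least 2 UMIs of other cell type markers, leukocyte markers included. It kept 734 of 1099 signature-positive cells of 48 h. The part of leukocyte RNA in the results was not tested on its own.

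HES1 and HES4 are shown by sequence because both carry the same letters before their starts while their levels moved apart. The motif searched was GTGGGAA on either strand, the core of the RBPJ recognition sequence, within 250 bases before each start in the RefSeq table for GRCh38.p14. It was found in 1906 of 35116 promoters, or 5.43%. Of the 9 members, 7 had an entry in the table, and 2 of these, HES1 and HES4, held the motif. The stretches from 130 to 70 bases before the start are given with the motif in capitals, for HES1 on chromosome 3 at 194136018 to 194136078 on the plus strand and for HES4 on chromosome 1 at 1000167 to 1000227 on the minus strand.
HES1: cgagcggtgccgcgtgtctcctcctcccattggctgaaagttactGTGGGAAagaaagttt
HES4: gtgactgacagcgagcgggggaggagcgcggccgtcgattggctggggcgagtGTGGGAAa
The motif starts 85 bases before HES1 and 77 bases before HES4, counted from the RefSeq starts. GENCODE places the start of HES4 at 1000172, within the motif. Among 48 other pathway genes, 40 had an entry and 3 held it, HES5 at 2 positions and HEY2 and HEYL at 1 each. A match describes letters only, not binding. All members are protein-coding genes in the GENCODE annotation of GRCh38, and reads were counted over whole genes at their 3′ ends. NOTCH1 lies on chromosome 9 at 136494433 to 136546048, NOTCH3 on chromosome 19 at 15159038 to 15200995 and JAG1 on chromosome 20 at 10637684 to 10673999, all on the minus strand, and HES1 on chromosome 3 at 194136148 to 194138732 on the plus strand.

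In all cells kept, the ligand JAG1, the receptor NOTCH1 and the target HES1 were higher in every lung library than in the parental culture, whereas HES4 was lower. Values of the 5 libraries are given in the order of culture, 6 h, 48 h and then 2 and 4 months. JAG1 stood at 7.80, 73.6, 63.9, 183 and 166 CPM. NOTCH1, known for its role in squamous differentiation, was at 1.43, 6.02, 5.64, 20.5 and 32.4 CPM. The lowest lung value of either gene lies above the interval of the parental value.

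HES1, a target found in many tissues, was at 22.4, 56.0, 65.6, 128 and 266 CPM. HES4, a HES1 relative found in humans but not in mice, was at 422, 60.0, 61.6, 223 and 106 CPM. HEY1, a target well known in blood vessel cells, was at 30.3, 6.42, 4.34, 40.0 and 40.4 CPM. The order of libraries thus differed between the targets: HES1 was lowest in culture, HES4 highest there, and HEY1 lowest at 48 h.

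A gene was called when its log2 ratio of CPM, with 1 CPM added, passed 2-fold and it had at least 5 CPM in either group. At 6 h, 4 of 8 members with enough UMIs were higher (NOTCH1, JAG1, JAG2, HES1), where 17.2% of all genes were called higher, and 2 were lower (HEY1, HES4), where 27.8% were. At 48 h the same counts of 4 and 2 of 8 stood beside 19.7% and 24.2% of all genes. At 2 months 4 of 7 were higher (NOTCH1, NOTCH3, JAG1, HES1), against 10.4% of all genes, and none was lower, against 11.5%. At 4 months 5 of 8 were higher (the same genes and JAG2), against 13.4%, and 2 were lower (NOTCH2, HES4), against 30.0%. DLL1 stayed under 5 CPM in every library and was never tested in these comparisons. The median log2 ratio of the members tested was 0.58, 0.36, 2.03 and 1.88 in time order, while that of all genes tested was -0.29, -0.12, -0.20 and -0.44, a shift that should be set against each ratio of all cells. These comparisons mix a change within cells with the change in the share of signature-positive cells from culture to lung.

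Within the parental library, JAG1 was higher in the signature-positive cells and HEY1 and HES4 in the signature-negative ones. JAG1 was at 25.9 CPM (24.2 to 27.8) in the positive and 4.49 CPM (4.18 to 4.82) in the negative cells, 5.78-fold higher. HES4 was at 126 and 476 CPM, 3.80-fold lower in the positive cells, and HEY1 at 12.0 and 33.7 CPM, 2.80-fold lower. Of 7 members tested 1 was higher, against 12.9% of all genes, and 2 were lower, against 18.8%, with an all-gene median log2 ratio of -0.26.

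None of the remaining members was called. NOTCH3 was at 7.15 CPM in the positive and 7.45 in the negative cells, with overlapping intervals. NOTCH2 was at 18.5 and 30.3 CPM, and HES1 at 14.7 and 23.9 CPM, both lower in the positive cells. NOTCH1, at 3.20 and 1.10 CPM, and DLL1, at 0.633 and 0.814 CPM, were under 5 CPM in both classes, and JAG2 was at 5.70 and 2.96 CPM. Signature-positive parental cells held 22.8 CPM of UCHL1, a gene of the negative cells at 286 CPM there. Whether this was RNA of the other class or their own was not tested. Leaving out positive cells rich in genes of the negative class left 1139 cells. The log2 ratio of HES4 then went from -1.92 to -2.34 and that of HEY1 from -1.41 to -1.54. In the other direction, the abundant positive-class gene S100A6 was at 4281 CPM in positive and 7.33 CPM in negative parental cells. The filter picks negative cells for lacking signature UMIs, so this level cannot gauge free RNA, whose part was not tested.

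**Figure D1:**
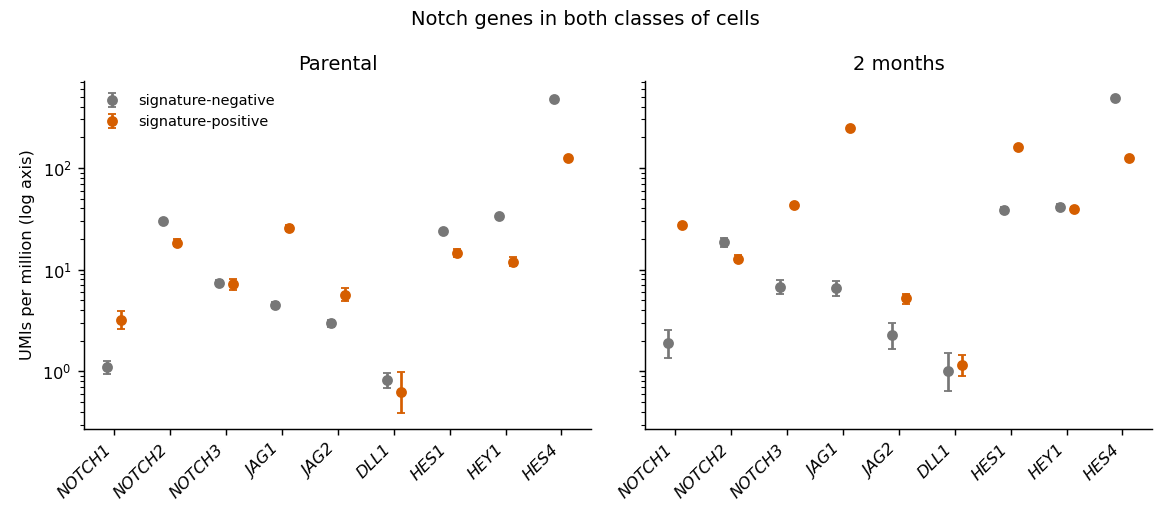
Levels of the 9 Notch genes in CPM on a log axis, in signature-negative (grey) and signature-positive (orange) cells of the parental and the 2 months library, with exact Poisson 95% intervals. JAG1 sits at 25.9 and 4.49 CPM in positive and negative parental cells and at 248 and 6.53 CPM at 2 months, while HES4 in negative cells is at 476 and 491 CPM.

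At 2 months, the only lung library with many signature-negative cells (606), the classes lay farther apart for JAG1, NOTCH1, NOTCH3 and HES1 than in culture. JAG1 was at 248 CPM in the positive and 6.53 CPM in the negative cells, 38.0-fold higher. NOTCH1 was at 27.3 and 1.88 CPM, 14.5-fold higher, and NOTCH3 at 43.0 and 6.80 CPM, 6.33-fold higher. HES1 was at 161 and 38.3 CPM, 4.20-fold higher, while HES4 was at 125 and 491 CPM, 3.94-fold lower, and HEY1 at 39.4 and 41.6 CPM, with overlapping intervals.

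Of 8 members tested at 2 months, 4 were higher in positive cells, where 18.8% of all genes were, and 1 was lower, where 21.9% were, with an all-gene median log2 ratio of -0.15. HES1 thus lay on opposite sides of its class difference in the culture (0.617-fold, 0.559 to 0.679) and at 2 months (4.20-fold, 3.91 to 4.51). S100A6 was at 202 CPM in the negative cells of 2 months and 17351 CPM in the positive ones.

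Among signature-positive cells alone, NOTCH1 and NOTCH3 were low in culture and in the early lung and several-fold higher at 2 and 4 months. NOTCH1 was at 3.20 (2.60 to 3.88), 6.05, 5.63, 27.3 and 32.4 CPM (31.4 to 33.4). NOTCH3, a receptor otherwise known from the muscle cells of vessels, was at 7.15, 7.99, 3.21, 43.0 and 48.2 CPM. NOTCH2 was at 18.5, 17.9, 18.9, 12.8 and 10.6 CPM.

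The 6 h and 48 h values of NOTCH1 have overlapping intervals, as do the culture and 6 h values of NOTCH3 and the culture, 6 h and 48 h values of NOTCH2. From culture to 4 months, NOTCH1 was 10.1-fold higher (8.32 to 12.5) and NOTCH3 6.74-fold higher (5.90 to 7.73), while NOTCH2 was 1.74-fold lower. The step from 48 h to 2 months was 4.84-fold for NOTCH1 and 13.4-fold for NOTCH3. NOTCH2 shares long stretches with its partial copies. The copy listed as NOTCH2NL was at 13.8, 20.1, 19.02, 8.91 and 8.20 CPM in the same cells, and how reads were split between them is uncertain. NOTCH3 is also a mural cell gene. The other 5 mural markers summed to at most 3.57 CPM in signature-positive cells, and the part of mural cell RNA in NOTCH3 was not tested on its own.

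**Figure D2:**
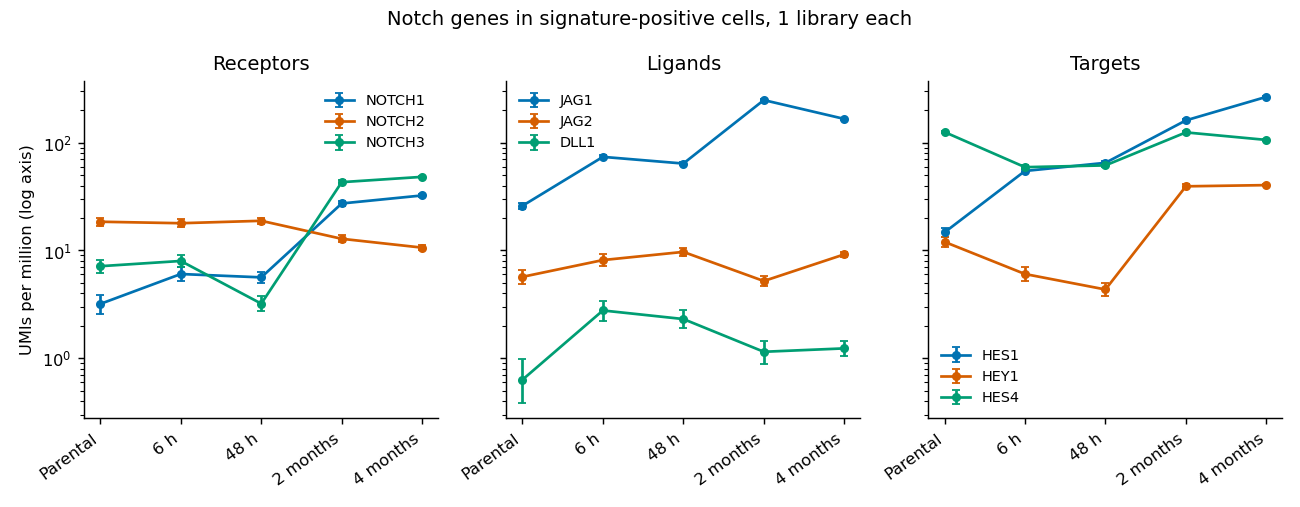
Levels of receptors, ligands and targets in signature-positive cells of the 5 libraries, in CPM on a log axis, with exact Poisson 95% intervals. NOTCH1 and NOTCH3 are at 5.63 and 3.21 CPM at 48 h and at 27.3 and 43.0 CPM at 2 months, JAG1 is highest at 2 months with 248 CPM, and HES1 goes from 14.7 CPM in culture to 266 CPM in the last library.

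Of the ligands, JAG1 was higher in the early lung and higher again in the late lung. It was at 25.9, 73.8, 64.0, 248 (244 to 252) and 166 CPM (164 to 168). It was 9.57-fold above culture at 2 months and 1.49-fold lower at 4 months than at 2 months. JAG2 was at 5.70, 8.15, 9.70, 5.21 and 9.20 CPM, less than 2-fold from culture throughout. DLL1 was at 0.633, 2.78, 2.31, 1.15 and 1.24 CPM, from only 20 UMIs in culture, and was 4.39-fold higher (2.68 to 7.53) at 6 h without reaching 5 CPM.

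The targets went separate ways. HES1 was at 14.7, 54.6, 65.0, 161 and 266 CPM, and was 18.1-fold higher (16.5 to 19.9) at 4 months than in culture. It was the only target whose counting intervals part at every step. These intervals leave out the spread between cells, which was wide for HES1 at 6 h. The variance of its counts per cell at equal depth was 7.26 times the mean there. Whether the step of HES1 from 6 h to 48 h exceeds this spread was not tested. HEY1 was at 12.0, 6.05, 4.35, 39.4 and 40.4 CPM, lower in the early lung and 3.36-fold above culture at 4 months. HES4 was at 126, 59.3, 61.5, 125 and 106 CPM, about its culture level again at 2 months.

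In signature-positive cells, 2 of 8 members tested were higher at 6 h (JAG1, HES1), against 10.6% of all genes, and 1 was lower (HES4), against 12.4%. At 48 h the same 2 were higher, against 12.9%, and 2 were lower (HEY1, HES4), against 9.43%. At 2 months 5 of 8 were higher (NOTCH1, NOTCH3, JAG1, HES1, HEY1), against 8.82%, and at 4 months the same 5, against 8.18%, and none was lower at either time, against 10.2% and 14.5%. The median log2 ratio of the members tested was 0.30, 0.34, 2.03 and 2.13 in time order, and that of all genes tested -0.05, 0.11, -0.03 and -0.23. Without signature-positive cells rich in genes of the negative class, the log2 ratio of HES4 went from -1.07 to -0.66 at 6 h and from -1.02 to -0.60 at 48 h, which ends both calls.

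Per cell, JAG1 and HES1 were found in more cells at the late times. After each cell was thinned to 3000 UMIs, which left out 6 to 250 signature-positive cells per library, JAG1 was seen in 6.67%, 14.7%, 15.3%, 46.5% and 36.6% of them, with exact binomial intervals of 5.38 to 8.16% in culture and 44.6 to 48.4% at 2 months. HES1 was seen in 4.45%, 11.6%, 17.8%, 30.5% and 46.0%. In signature-negative cells at the same depth, JAG1 was seen in 1.66% of parental cells and 2.04% of cells at 2 months, below every share in positive cells, and HES4 in 69.2% and 70.2%. With all UMIs, at medians of 24831, 13336.5, 40584, 19415.5 and 27705 per positive cell, JAG1 was seen in 39.1%, 43.2%, 72.3%, 84.6% and 84.4% of positive cells and HES1 in 27.4%, 31.0%, 64.3%, 65.0% and 79.6%. In negative cells with all UMIs, at medians of 22772 and 37139.5, JAG1 was seen in 9.10% and 19.1%, and HES1 in 36.6% and 64.7%.

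Any of the 3 receptors was seen in 8.21%, 7.08%, 8.04%, 24.6% and 23.4% of signature-positive cells in time order, any ligand in 8.13%, 17.2%, 18.99%, 47.6% and 38.5%, and any target in 31.4%, 24.9%, 33.1%, 56.0% and 62.8%. HES1 was spread unevenly over cells. At 6 h the variance of its thinned count was 7.26 times the mean, against 1.54 for JAG1 in the same cells, and 5 of 1823 cells with at least 6 HES1 UMIs held 23.8% of all its thinned UMIs. Without them HES1 at 6 h was at 44.7 instead of 54.4 CPM. At 4 months 74 of 4215 such cells held 13.9% of the UMIs.

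Within each library, HES1 was higher in signature-positive cells rich in immediate early genes. Cells switch these genes on within minutes of stimulation or stress, tissue dissociation included. The list of 10 such genes (FOS, FOSB, JUN, JUNB, EGR1, ATF3, IER2, NR4A1, DUSP1, ZFP36) was chosen after the HES1 values were seen. Its summed level in signature-positive cells was 378, 2932, 6098, 2115 and 4217 CPM. Between libraries this sum and HES1 both rose from culture to 6 h, from 6 h to 48 h and from 2 to 4 months. From 48 h to 2 months the sum fell, while HES1 rose from 65.0 to 161 CPM. In both classes the summed level was low in culture, at 233 CPM in negative cells, and at 2 months it was at 308 CPM in the negative cells.

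Signature-positive cells of each library were ranked by the share of their UMIs in this list and cut in 3 equal parts, of which the upper and the lower were compared. HES1 was at 18.4, 119, 109, 395 and 559 CPM in the upper and at 11.9, 1.12, 30.8, 29.3 and 74.4 CPM in the lower part. The ratio was 1.55 in culture and 3.54 at 48 h. It was 13.5 (12.4 to 14.6) at 2 months and 7.52 (7.25 to 7.80) at 4 months. At 6 h it was 106 (48.7 to 290), where the lower part was nearly free of HES1 and its cells were shallower, with a median of 6906.5 UMIs against 16897.5.

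The receptors and JAG1 depended less on this ranking at the late times. At 4 months NOTCH1 was at 40.3 and 25.3 CPM in the upper and lower part, NOTCH3 at 61.6 and 37.7 CPM, HEY1 at 54.4 and 28.5 CPM, and JAG1 at 168 and 158 CPM. At 2 months JAG1 was lower in the upper part, at 212 against 263 CPM. At 6 h JAG1 was at 91.5 and 18.7 CPM.

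Between the lower parts alone, HES1 was 6.25-fold higher (5.22 to 7.54) at 4 months than in culture, 2.46-fold at 2 months and 2.59-fold at 48 h, and it was lower at 6 h, at 1.12 against 11.9 CPM. NOTCH1 was 7.98-fold higher at 4 months in that comparison, NOTCH3 5.85-fold, JAG1 6.35-fold and HEY1 2.10-fold. JAG1 at 6 h stood at 18.7 against 25.0 CPM. Other members were lower in that comparison at 6 h too: NOTCH2 0.486-fold, JAG2 0.454-fold, HEY1 0.124-fold and HES4 0.283-fold. The intervals of NOTCH1, NOTCH3 and DLL1 hold 1 there. These lower parts are low only within their own library and are not at equal levels: the median level of the 10 immediate early genes per cell in them was 163, 0, 2113, 505 and 1582 CPM in the same order, and that of the upper parts 557, 4617, 10267, 4544 and 7761 CPM. By these medians the lower part at 4 months was above the upper part in culture, and the lower part at 6 h was below the lower part in culture. A comparison between libraries at matched levels of these genes was not made, and the part of handling in the levels was not tested.

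**Figure D3:**
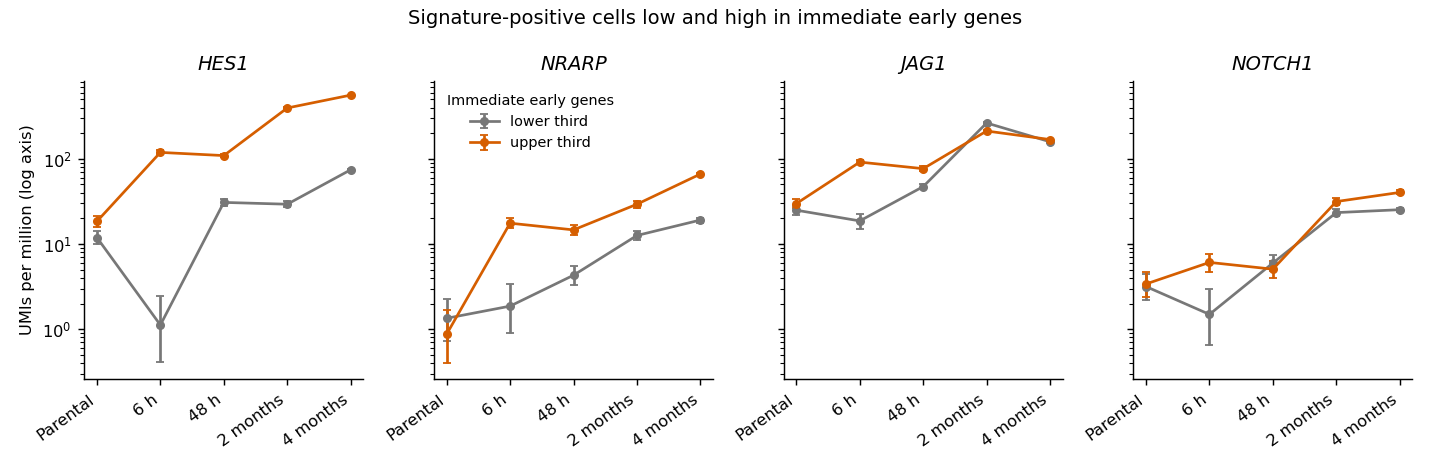
Levels of HES1, NRARP, JAG1 and NOTCH1, in CPM on a log axis with exact Poisson 95% intervals, in the upper (orange) and lower (grey) of 3 equal parts of the signature-positive cells of each library, ranked by 10 immediate early genes. HES1 is parted at every lung time, at 559 and 74.4 CPM at 4 months, while JAG1 is at 168 and 158 CPM there.

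Of 48 other genes of the pathway, 33 to 36 had enough UMIs in the comparisons of lung with cultured signature-positive cells. At 6 h 3 of 33 were higher and 1 lower, where 10.6% and 12.4% of all genes tested were. At 48 h 6 of 33 were higher and 0 lower, beside 12.9% and 9.43% of all genes, at 2 months 6 and 1 of 36, beside 8.82% and 10.2%, and at 4 months 4 and 2 of 34, beside 8.18% and 14.5%. NRARP, a target that feeds back on the Notch complex, was at 1.20, 9.48, 8.44, 18.0 and 38.9 CPM, at 4 months 32.3-fold above culture. In the upper and lower part by immediate early genes NRARP was at 66.3 and 19.1 CPM at 4 months.

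HES2 was at 10.2, 10.5, 7.99, 52.8 and 41.2 CPM and HEY2 at 1.96, 0.154, 0.129, 12.7 and 14.1 CPM, both low in the early lung and higher late, as NOTCH1, NOTCH3 and HEY1 were. HES7 was at 1.20, 5.68, 5.40, 5.51 and 2.40 CPM. HES5 and HEYL, targets in other tissues, stayed under 1 CPM in these cells.

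Of the cleavage genes, FURIN, the convertase that matures the receptors, was at 12.8, 33.7, 30.3, 14.9 and 16.6 CPM, above 2-fold at 6 h and 48 h only. PSEN2 and PSENEN were above 2-fold at 48 h, the latter at 289 against 122 CPM, and APH1B at 4 months, at 8.98 against 2.18 CPM. ADAM10, the protease of the cleavage that follows ligand binding, was at 41.6, 29.4, 37.9, 27.3 and 26.6 CPM. RBPJ, the DNA-binding partner, was at 31.1, 33.2, 41.9, 38.0 and 27.7 CPM, and none of the 9 nuclear partners tested was called at any time.

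Of the glycosylation genes, RFNG, a Fringe enzyme that modifies the receptors, was at 4.14, 6.98, 11.4, 11.4 and 7.51 CPM, and POFUT1, which adds the fucose that Fringe extends, was at 31.4 and 13.9 CPM in culture and at 4 months. ITCH, a ubiquitin ligase of the receptors, was at 61.7 and 29.6 CPM, 2.09-fold lower at 4 months. The ligand-like DLL3 was at 52.0 CPM in culture and 22.6 CPM at 6 h, and at 2 months DLK2 was lower, at 1.57 against 5.22 CPM, and CNTN1 higher, at 11.3 against 3.67 CPM.

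Between the parental classes, 7 of 33 pathway genes tested were higher in positive cells and 6 lower, beside 12.9% and 18.8% of all genes tested. HES2 was at 10.2 CPM in the positive and 0.444 CPM in the negative cells, 22.9-fold higher, and HEY2 at 1.96 and 14.7 CPM, 7.52-fold lower. MIB2, a ligase that acts on ligands, was at 79.6 and 24.1 CPM and HES6 at 5.98 and 23.6 CPM. The classes of 2 months differed the same way for HES2, at 52.8 and 0.736 CPM, and NRARP was 9.13-fold higher in positive cells there.

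Within a library, JAG1-positive and JAG1-negative cells, judged at 3000 UMIs among signature-positive cells, had levels of the 3 targets that differed by 1.59-fold or less. HES1 was at 18.7, 65.5, 76.5, 142 and 282 CPM in JAG1-positive and at 14.4, 52.0, 62.8, 178 and 257 CPM in JAG1-negative cells. The ratio was 1.30 (0.914 to 1.80) in culture, 1.26 (1.12 to 1.41) at 6 h and 1.22 (1.11 to 1.34) at 48 h, then 0.801 (0.769 to 0.835) at 2 months and 1.10 (1.07 to 1.12) at 4 months. The difference at 2 months thus had the opposite sign. Without the 5 cells high in HES1, the ratio at 6 h was 1.07 (0.936 to 1.23).

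HEY1 was higher in JAG1-positive cells at both late times, at 44.4 and 34.8 CPM at 2 months (1.28, 1.18 to 1.39) and at 47.3 and 36.3 CPM at 4 months (1.30, 1.23 to 1.38). HES4 was lower, 0.880 and 0.922 times. Immediate early genes moved with HES1 here too, at 1991 and 2228 CPM in JAG1-positive and JAG1-negative cells at 2 months and at 4367 and 4131 CPM at 4 months. The positions of cells in the lung were not analysed here.

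Cells with a NOTCH1 UMI or with a NOTCH3 UMI had more HEY1, NRARP, HES1 and HES4 RNA at 4 months, in a comparison added after the data were seen. HEY1 was at 63.7 CPM in the 375 NOTCH1-positive cells and 38.1 CPM in the 3840 others (1.67-fold, 1.54 to 1.81), NRARP at 53.8 and 37.5 CPM (1.43-fold) and HES1 at 315 and 261 CPM (1.20-fold). HES4 was at 126 and 104 CPM in the same cells (1.21-fold, 1.15 to 1.28), and immediate early genes at 4572 and 4183 CPM. In the 563 NOTCH3-positive cells the ratios were 1.40 for HEY1, 1.47 for NRARP, 1.31 for HES1 and 1.28 for HES4, with immediate early genes at 4767 and 4137 CPM. The part of cell division and of immediate early genes in these ratios was not tested. At 2 months the ratios of HEY1, NRARP and HES1 lay between 1.12 and 1.23 for NOTCH1 and between 1.18 and 1.20 for NOTCH3, and that of NRARP for NOTCH1 had an interval that holds 1 (0.893 to 1.38). The intervals of HES4 at 2 months hold 1 for both receptors. Immediate early genes were at 2367 and 2092 CPM in NOTCH1-positive and other cells of 2 months, and at 2239 and 2095 CPM for NOTCH3. At 6 h HES1 was lower in NOTCH3-positive cells, at 25.9 CPM in 37 cells and 54.97 CPM in the 1786 others (0.471-fold, 0.274 to 0.756), with immediate early genes at 2883 and 2930 CPM. The intervals of NRARP (1.81-fold, 0.893 to 3.28), HES4 (1.09-fold) and HEY1 (0.247-fold, from 1 UMI) hold 1 there.

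Cells high in KRT5 (at least 3 UMIs at 3000) differed from cells with none, also in an added comparison. At 4 months NOTCH3 was at 55.2 CPM in 2848 KRT5-high cells and 27.8 CPM in 428 cells without KRT5 (1.98-fold, 1.77 to 2.23), NOTCH1 at 35.5 and 22.2 CPM (1.60-fold) and HEY1 at 42.3 and 28.1 CPM (1.51-fold). HES1 was at 284 and 228 CPM in the same cells of 4 months (1.25-fold, 1.20 to 1.30). NRARP was 1.49-fold higher there and 1.25-fold higher at 2 months. JAG1 was 1.10-fold higher at 4 months and 1.53-fold higher at 2 months, at 303 and 197 CPM. The other differences were smaller at 2 months, in 825 and 1072 cells: NOTCH1 was 1.32-fold higher (1.17 to 1.49) and NOTCH3 1.22-fold higher (1.11 to 1.34), while the intervals of HEY1 (1.02-fold, 0.923 to 1.13) and HES1 (1.01-fold, 0.964 to 1.06) hold 1. HES4 was higher in KRT5-high cells at 4 months (1.24-fold, 1.16 to 1.32) and lower at 2 months (0.864-fold, 0.817 to 0.914). Immediate early genes stood at 4318 and 4313 CPM in these groups at 4 months and at 1976 and 2353 CPM at 2 months.

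NOTCH3 was lower in dividing cells in every library. Dividing cells had at least 3 UMIs of 10 mitosis genes at 3000 UMIs and resting cells none. NOTCH3 was at 5.88, 5.68, 1.27, 25.5 and 19.98 CPM in dividing and at 13.4, 9.60, 4.19, 52.3 and 56.6 CPM in resting cells, with ratios of 0.303 to 0.592 whose intervals all lie under 1. JAG1 was at 139 CPM in 476 dividing and 171 CPM in 3149 resting cells at 4 months (0.815, 0.781 to 0.849) and at 73.6 and 72.4 CPM at 6 h.

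HES1 was lower in dividing cells at 48 h, 2 months and 4 months and higher at 6 h. It was at 14.6, 57.0, 48.9, 117 and 155 CPM in dividing and at 18.3, 37.1, 67.0, 185 and 307 CPM in resting cells. The ratio was 0.799 (0.603 to 1.08) in culture, 1.54 (1.36 to 1.73) at 6 h and 0.730 (0.658 to 0.808) at 48 h, then 0.632 (0.597 to 0.669) at 2 months and 0.505 (0.486 to 0.525) at 4 months. HES4 was likewise higher in dividing cells at 6 h (1.62) and lower at 4 months (0.691). Dividing cells had less immediate early gene RNA in each library, at 2878 against 4658 CPM at 4 months and at 2568 against 2906 CPM at 6 h, and at 6 h they were shallower, with a median of 11997.5 against 16557 UMIs.

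**Figure D4:**
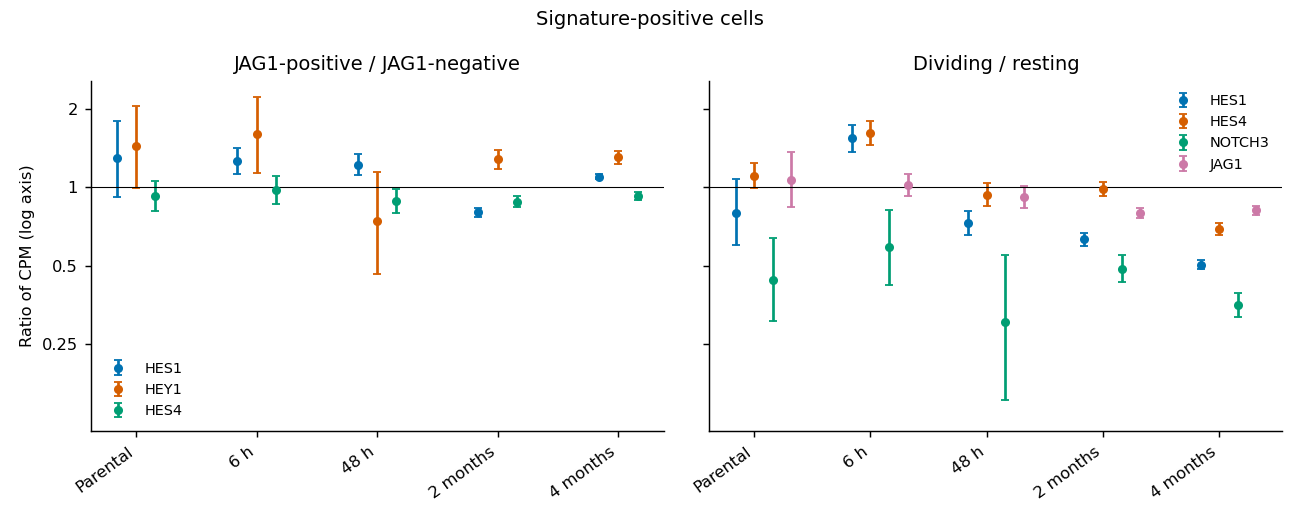
Ratios of CPM, on a log axis with exact conditional binomial 95% intervals, between JAG1-positive and JAG1-negative cells (left) and between dividing and resting cells (right), among signature-positive cells of each library. HES1 lies at 0.801 at 2 months on the left and, on the right, at 1.54 for 6 h and 0.505 for 4 months, and NOTCH3 lies under 1 throughout.

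Over the 5 libraries, the genes most like the members with the widest range were sought among 11401 genes by the root mean square difference of centred log2 levels of all cells. JAG1 was nearest to DUSP6 (0.15), a phosphatase of the ERK kinases, AREG (0.16), a ligand of the EGF receptor, and FXYD3 (0.25). NOTCH1 was nearest to GSTT2B (0.17), which shares sequence with a copy of itself, RGCC (0.19) and HES2 (0.23), and NOTCH3 to DSC3 (0.32), a desmosome cadherin, ABCG1 (0.33) and LRG1 (0.37). The levels had 1 CPM added before the logarithm. ABCG1 and LRG1 were under 1 CPM in culture and the early lung, and GSTT2B was in culture, so the added CPM shapes their likeness. These likenesses rest on 5 points that also follow the share of signature-positive cells.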

How the data were processed

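Per the labels the counts are human single-cell libraries, and the submitters' processing notes name Cell Ranger 3 and GRCh38. The authors deposited UMI counts per gene and barcode without normalization. From these, CPM, ratios and 95% intervals were taken (Python 3.11.15, scipy 1.17.1, numpy 2.4.6; plots by matplotlib 3.10.9). There was no test, since each group is 1 library and cells are not replicates. A count of 0 allows up to 3 counts. Doublets were not called. Signature-positive cells rich in genes of the negative class, cells with at least 2 UMIs of other cell types and the 5% of cells with the most UMIs were left out in alternatives. Thinning used a fixed seed. Named are all members, pathway genes highest, lowest or past 2-fold in their list, and the 3 genes most like the 3 members with the widest range. Members, lists and rules were chosen with earlier results of these data known. On simulated data for 4 months against parental positive cells (9417 genes tested), 50 of 50 genes changed 4-fold and 0 of 9217 unchanged genes were called. The changed genes were drawn from genes more abundant in parental positive cells than NOTCH1 (3.20 CPM), NOTCH3 (7.15 CPM) or HES1 (14.7 CPM). The simulation thus does not cover calls at the levels of these members. Genes lowered 2-fold, at the cutoff itself, were simulated but not summarised. The simulated counts held counting error only, so they say nothing about the spread between cells, mice or libraries. Some single genes are not reported here.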

Additional observations from a re-analysis of the deposited data

Results flagged for a closer look

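In the following contrasts a member had an interval above 1 in 1 library and below 1 in another. None of these differences between libraries was tested, since each is 1 library. HES1 in signature-positive against signature-negative cells had a ratio of 4.20 at 2 months and 0.617 in culture, and the 10 immediate early genes were at 2115 and 308 CPM in these classes at 2 months and at 378 and 233 CPM in culture. HES1 in JAG1-positive against JAG1-negative cells had a ratio of 1.26 at 6 h and 0.801 at 2 months. Without cells of at least 6 HES1 UMIs, the ratio was 1.07 at 6 h, with an interval that holds 1 (0.936 to 1.23). On the same terms it was 1.24 (1.13 to 1.36) at 48 h and 0.856 (0.820 to 0.893) at 2 months. HES1 in dividing against resting cells had a ratio of 1.54 at 6 h and 0.505 at 4 months, and HES4 one of 1.62 at 6 h and 0.691 at 4 months. NOTCH2 in dividing against resting cells had a ratio of 1.37 in culture, with an interval that starts just above 1, and 0.657 at 48 h. JAG1 in cells high against cells low in immediate early genes had a ratio of 4.90 at 6 h and 0.805 at 2 months. HES4 in the same contrast had a ratio of 1.76 at 6 h and 0.773 in culture. HES1 in NOTCH3-positive against NOTCH3-negative cells had a ratio of 1.31 at 4 months and 0.471 at 6 h, the latter from 17 UMIs in 37 cells. HES4 in KRT5-high cells against cells without KRT5 had a ratio of 1.24 at 4 months and 0.864 at 2 months.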

How the results depend on the processing

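Counts of members past 2-fold, higher and lower together, stayed within 1.5 times of the reported count in all 10 comparisons under the alternatives run, except that with 5 CPM added 2 instead of 4 members were called at 48 h in signature-positive cells. Counted by direction they moved more. Of the 4 higher members over all cells, 2 were left at 6 h with 5 CPM added or every cell weighing the same, and 2 at 48 h with 5 CPM added. In signature-positive cells the 2 higher and 1 lower at 6 h were 0 and 3 in the lower part by immediate early genes, and 0 to 3 were lower at 48 h across the alternatives. Each of 828 values of single members under the alternatives was set against its counting interval on the log2 scale. Of these, 625 moved by no more than the distance from the middle of the interval to its end, and 201 by more. Another 2 that were called changed sign, both at 6 h in the lower part of cells by immediate early genes, an alternative added after the data were seen. There the log2 ratio was -0.40 for JAG1 and -2.61 for HES1. The alternative without a minimum of 5 CPM changes no ratio, so its values are among the 625 by construction. The share of HES1-positive cells at 4 months minus culture, 41.5 percentage points at 3000 UMIs, was 21.3 at 1000 UMIs, 57.3 at 10000, 52.2 with all UMIs and 23.5 with at least 2 UMIs. The log2 ratio of HES1 between JAG1-positive and JAG1-negative cells at 6 h, 0.33 as reported, was -0.0089 at 1000 UMIs, 0.55 at 10000 and 0.10 without cells high in HES1. At 2 months it was -0.25, -0.39 and -0.22, and at 4 months 0.22 at 10000 UMIs. The log2 ratio of HES1 between dividing and resting cells was -0.76 at 10000 UMIs and 0.11 over all cells in culture, 1.23 at 1000 and 1.14 at 10000 UMIs at 6 h, -0.70 and -0.15 at 48 h, -0.75, -0.56 and, over all cells, -1.16 at 2 months, and -1.10, -0.91 and, without cells high in HES1, -0.90 at 4 months. The cause was not tested. No paired analysis was possible because each group is 1 library with the same replicate number. Without replicates, the spread between mice or cultures is unknown. In signature-positive cells of the culture DLL1 rests on 20 UMIs, NOTCH1 on 101, JAG2 on 180 and NOTCH3 on 226.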

Other observations

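The 5 cells of 6 h with at least 6 HES1 UMIs at 3000 UMIs per cell, chosen after their values were seen, also stood apart in other genes. Over all their UMIs HES1 was at 4386 CPM, against 44.7 CPM in the other signature-positive cells of 6 h, and NRARP, the feedback target, at 404 against 8.53 CPM. The stress-induced factor ATF3 was at 15760 against 292 CPM, FOS at 10080 against 205 CPM and NR4A1 at 6585 against 61.8 CPM. JAG1 was at 334 against 73.5 CPM, from 24 UMIs, and HEY1 at 69.6 against 5.92 CPM, from 5 UMIs.

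The few signature-negative cells of the other lung libraries, 35 at 6 h, 50 at 48 h and 34 at 4 months, were shallow, with median counts of 1743, 1837 and 1490 UMIs. HES1 was at 358 CPM in those of 6 h and 329 CPM in those of 48 h, from 51 and 33 UMIs in 3 and 19 cells. Most COL1A1 RNA of 48 h and most LYZ RNA of 6 h also lay in these cells, as given above. Genes of the signature-positive class were found in them too. The keratin KRT19 was at 1397 CPM in those of 6 h, seen in 27 of 35 cells. At 48 h it was at 279 CPM, seen in 13 of 50 cells. The signature gene S100A14 was at 1406 CPM in those of 4 months, seen in 23 of 34 cells. Whether they are tumour cells was not tested.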
